A study of Mus musculus with 20 samples.

Results

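Macrophages were compared with dendritic cells by small RNA sequencing of cells grown from mouse bone marrow. The 10 libraries titled as macrophages were set against the 10 titled as dendritic cells, which takes in all 20 libraries of the series. Libraries were paired by genotype and stimulus, the immature dendritic cells with the unstimulated macrophages, which gave 10 pairs. Marrow came from mice 8 to 12 weeks old, either wild type (strain C57BL/6) or miR-155 knockout (strain B6.Cg-Mir155tm1.1Rsky/J). Hybridoma supernatant supplied the growth factor, GM-CSF for dendritic cells and M-CSF for macrophages. Within a genotype and cell type, 1 library each was left unstimulated or given LPS (bacterial lipopolysaccharide), oxLDL, eLDL or LDL, the last 3 being preparations of low density lipoprotein. For dendritic cells LPS was given overnight at 200 ng/ml on day 8 to 9. The LPS dose and time for macrophages, the lipoprotein doses and the purity of the cultures were not found in the labels. No condition was repeated, and the labels do not say which libraries share a mouse or a culture, so the p-values measure the scatter between these 10 pairs, which may be partly technical.

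A miRNA is cut from a hairpin precursor, whose 2 arms give the 5p and the 3p product, and is loaded into Argonaute, which it guides to mRNAs. Target choice rests mainly on bases 2 to 8 of the miRNA, the seed, so miRNAs with 1 seed form a family with overlapping targets even where they come from different loci. In myeloid cells miR-155, miR-146a and miR-146b, miR-9, miR-147 and miR-187 are known as miRNAs that respond to inflammatory signals, miR-21 and miR-223 are abundant, and let-7 miRNAs mark differentiated cells.

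The sequences below carry the main differences between the cell types. Each is the RefSeq mature sequence (GRCm38.p6), with the seed in capitals. The first pair shares a seed and went in opposite directions between the cell types. Then come members of the miR-181, miR-99, miR-125 and let-7 families, and within each family the members shown went the same way by different amounts. The last 3 are the most unequal abundant miRNA of macrophages, the miRNA deleted in the knockout mice and the leading miRNA of dendritic cells.
miR-146a-5p: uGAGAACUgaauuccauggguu
miR-146b-5p: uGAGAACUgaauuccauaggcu
miR-181a-5p: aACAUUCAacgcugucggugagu
miR-181c-5p: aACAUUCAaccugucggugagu
miR-181d-5p: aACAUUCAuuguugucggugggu
miR-99a-5p: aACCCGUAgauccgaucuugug
miR-99b-5p: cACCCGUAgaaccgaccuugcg
miR-100-5p: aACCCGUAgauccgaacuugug
miR-125a-5p: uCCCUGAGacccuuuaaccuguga
miR-125b-5p: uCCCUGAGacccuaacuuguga
let-7a-5p: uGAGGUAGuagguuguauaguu
let-7c-5p: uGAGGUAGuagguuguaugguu
let-7e-5p: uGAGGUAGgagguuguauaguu
miR-9-5p: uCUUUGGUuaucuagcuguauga
miR-155-5p: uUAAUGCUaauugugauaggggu
miR-21a-5p: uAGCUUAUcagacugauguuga
Counted from the 5′ end, miR-146a-5p and miR-146b-5p differ at 2 of 22 positions, G18A and U21C (the miR-146a base first). let-7e-5p differs from let-7a-5p by 1 base (U9G, the let-7a base first), let-7c-5p from let-7a-5p by 1 (A19G), and miR-100-5p from miR-99a-5p by 1 (U16A, the miR-99a base first).

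The libraries held 10.3 to 17.1 M reads in dendritic cells and 13.5 to 22.8 M in macrophages, of which 5.07 to 10.6 M and 6.44 to 11.8 M were miRNA reads. Levels are CPM, the read count of a miRNA scaled to a common total of miRNA reads per library. A library without any read of a miRNA allows a level of up to 3 reads, or 0.255 to 0.592 CPM, for counting error only. The files of the 2 cell types also differ in their reads. In macrophages 7.52 to 7.92% of the reads of 20 nt or more had an uncalled base at position 20, in dendritic cells at most 9.27e-06%. Anything that differed with the sequencing of the 2 sets cannot be told apart from cell type in the comparisons below. Allowing up to 2 uncalled bases gave 284 calls of 377 miRNAs, and matching only the first 19 bases gave 309 of 404, beside 285 of 376 in the main test. Since each library is bulk RNA, fewer cells that make a miRNA and less of it per cell cannot be told apart.

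Most miRNAs differed between the cell types. Of the 376 tested miRNAs, 285 were called (75.8%), 153 higher in macrophages (40.7%) and 132 lower (35.1%), by edgeR's quasi-likelihood test over the 10 pairs with Benjamini-Hochberg adjusted p under 0.05 (291, 77.4%, at unadjusted p under 0.05). With upper-quartile scaling the split was 111 higher and 166 lower, because the median log2 difference of all tested miRNAs lay at −0.256 in place of 0.0765. Small differences thus depend on the scaling. Large differences were common: 157 miRNAs (41.8%) were called with more than 2-fold, and 87 (23.1%) with more than 4-fold, 56 higher (14.9%) and 31 lower (8.24%). For 118 (31.4%) the range of the 10 macrophage libraries did not overlap that of the 10 dendritic cell libraries, with 57 higher (15.2%) and 61 lower (16.2%). In 181 (48.1%) all 10 pairs had the same direction. In single pairs, between 83.9% of the 285 called miRNAs (the unstimulated wild-type pair) and 96.8% (the knockout pair with eLDL) had the direction of the call. The plot of log2 difference against mean level shows miRNAs with more than 4-fold differences both at low and at high mean levels.

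**Figure D1:**
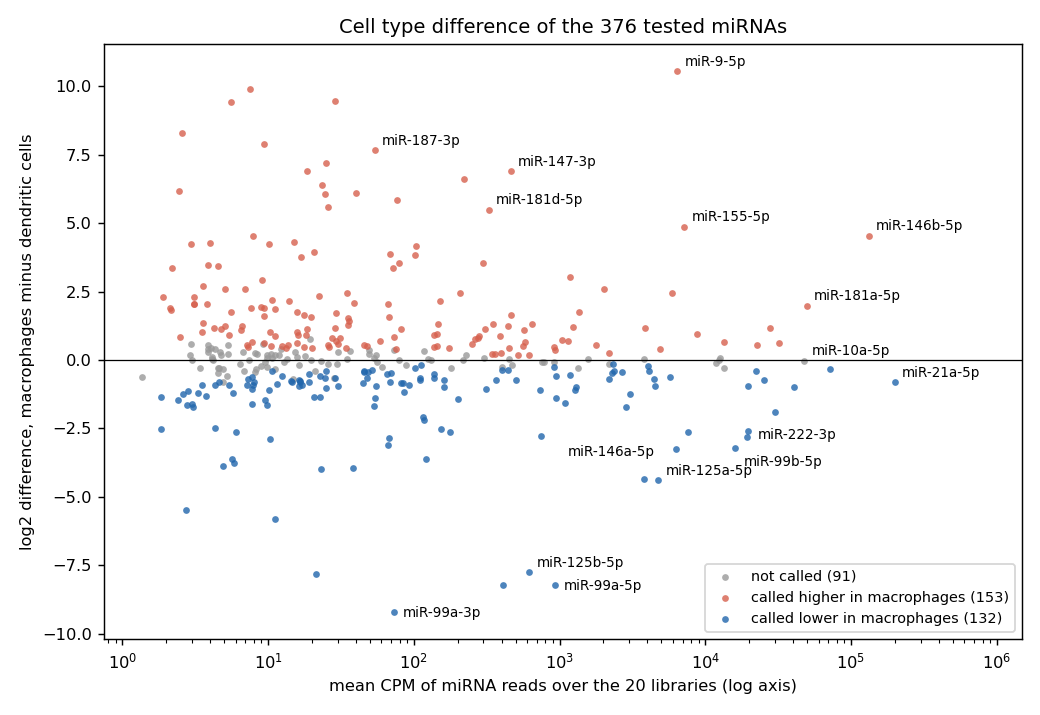
Log2 difference between macrophages and dendritic cells (vertical axis) against the mean CPM over the 20 libraries (horizontal log axis) for each of the 376 tested miRNAs, as points coloured by the test. miR-146b-5p lies at 4.54 among the most abundant miRNAs, miR-9-5p at 10.56, and miR-99a-3p at −9.21, while miR-10a-5p lies near 0.

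The most abundant miRNAs were reordered. The 10 leading miRNAs held a mean of 64.8% of miRNA reads in dendritic cells and 72.8% in macrophages, and 5 of them were the same: miR-21a-5p, let-7f-5p, let-7a-5p, miR-10a-5p and miR-22-3p. miR-21a-5p, which is known to restrain inflammatory signalling, led dendritic cells with 202800, 265000 and 312300 CPM (lowest, median and highest library) and stood at 91610, 134400 and 205900 CPM in macrophages. It was lower in macrophages in all 10 pairs, although the ranges overlap (log2 difference −0.82 ± 0.130, SE, adjusted p = 9.9e-05). Of the other leading miRNAs of dendritic cells, miR-27b-3p (log2 −1.90 ± 0.0770), let-7c-5p (−2.61 ± 0.132), miR-30d-5p (−0.93 ± 0.0695), miR-222-3p (−2.81 ± 0.278) and miR-99b-5p (−3.23 ± 0.342) were lower in macrophages with no overlap of the libraries. Of those that led macrophages only, miR-146b-5p, miR-181a-5p (1.99 ± 0.0794) and miR-191-5p (1.19 ± 0.0849) were higher with no overlap, and miR-92a-3p (0.63 ± 0.101) and miR-142a-5p (0.54 ± 0.0764), a blood cell miRNA, were higher with overlapping ranges. miR-10a-5p, encoded in a Hox cluster, stood at 38100, 46810 and 62930 CPM in dendritic cells and 23170, 48120 and 82190 CPM in macrophages and was not called (log2 −0.02 ± 0.218, adjusted p = 0.95), and its difference was split by genotype, as given below.

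Summed by seed over the tested miRNAs with a RefSeq sequence, macrophage miRNA reads shifted from let-7 and miR-21 towards miR-146 and miR-181. The seed GAGAACU of miR-146a and miR-146b held 2.37% ± 0.405 (SD, 10 libraries) of miRNA reads in dendritic cells and 25.4% ± 1.21 in macrophages. The seed GAGGUAG, shared by let-7 miRNAs and miR-98, held 23.1% ± 4.42 and 13% ± 1.79, and AGCUUAU of miR-21a 26% ± 3.31 and 14.1% ± 3.47. ACAUUCA of the miR-181 family held 2.31% ± 0.369 in dendritic cells and 8.94% ± 1.39 in macrophages. The seed UCACAGU of miR-27a and miR-27b went from 5.29% ± 0.801 to 1.54% ± 0.192, GCUACAU of miR-221 and miR-222 from 4.71% ± 1.29 to 0.643% ± 0.188, and ACCCGUA of miR-99 and miR-100 from 3.05% ± 0.672 to 0.344% ± 0.234, in each case from dendritic cells to macrophages. These shares are parts of 1 whole, so a rise of 1 seed lowers the others.

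miR-146a-5p and miR-146b-5p, known brakes on Toll-like receptor signalling, had similar levels in dendritic cells, while in macrophages miR-146b-5p was far above miR-146a-5p. miR-146a-5p, from chr11:43374397-43374461 (GRCm38, minus strand, outside annotated genes other than its own), stood at 9638, 11420 and 12810 CPM in dendritic cells and 452.5, 1228 and 1714 CPM in macrophages. No macrophage library reached the lowest dendritic cell library (log2 −3.23 ± 0.143, adjusted p = 1.3e-09). miR-146b-5p, from chr19:46342762-46342870 (plus strand, in an intron of Mfsd13a), stood at 6745, 11530 and 20780 CPM in dendritic cells and 231700, 254000 and 267500 CPM in macrophages, a mean of 25.3% of all macrophage miRNA reads. Every macrophage library lay above every dendritic cell library (log2 4.54 ± 0.216, adjusted p = 2.5e-09). Because the sequences differ only at positions 18 and 21, the reads that cover both were examined. In dendritic cells 40.0 to 69.0% of them carried the miR-146a bases at both positions, and in macrophages 0.243 to 0.816%. Reads that mixed a miR-146a base with a miR-146b base made up 0.0676 to 0.108% in dendritic cells and 0.112 to 0.128% in macrophages.

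**Figure D2:**
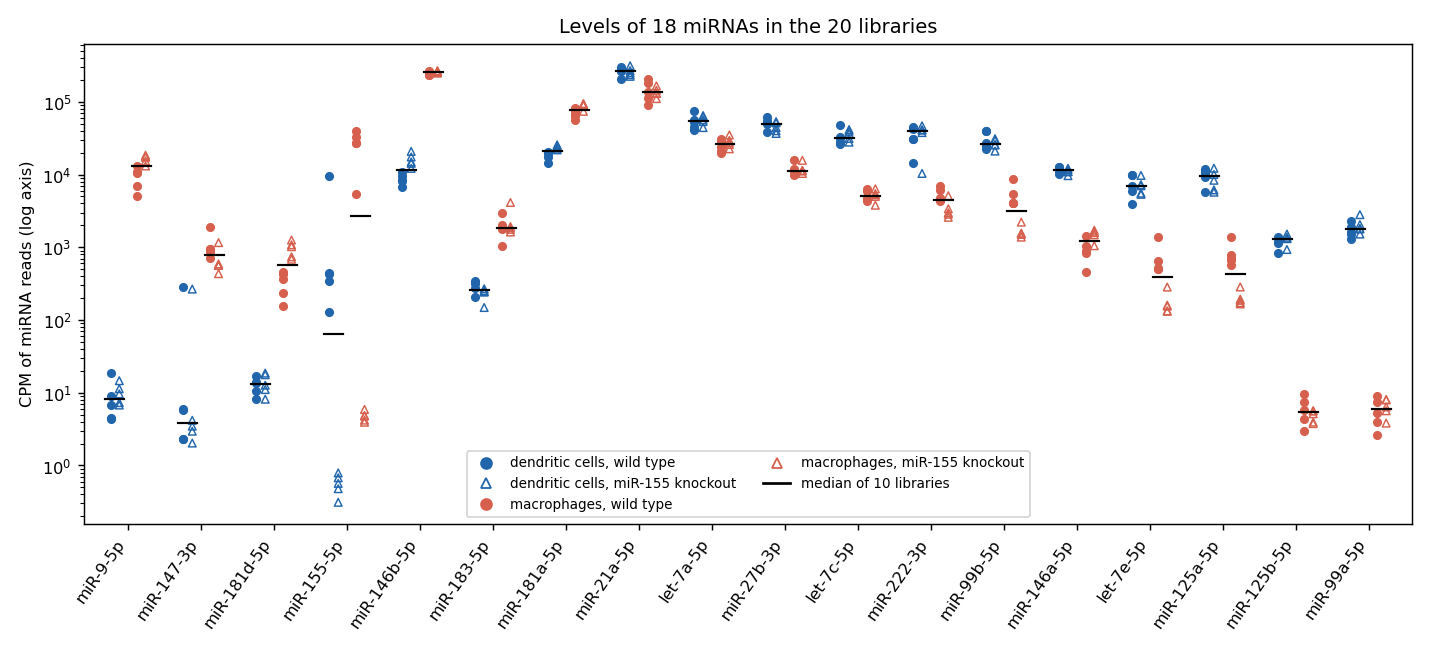
Level in CPM (vertical log axis) of 18 miRNAs (horizontal axis) in each of the 20 libraries, dendritic cells in blue and macrophages in red, wild type as filled circles and miR-155 knockout as open triangles, with the median of the 10 libraries as a bar. miR-9-5p, miR-146b-5p and miR-181a-5p are separated with macrophages above, and miR-146a-5p, miR-125b-5p and miR-99a-5p with macrophages below, while miR-155-5p is split by genotype within each cell type.

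Among the 15 largest differences towards macrophages (mean of at least 50 CPM and the same direction in all 10 pairs), miR-9-5p came first. miR-9-5p, which has 3 hairpin loci that its reads cannot tell apart, stood at 4.341, 8.148 and 18.86 CPM in dendritic cells and 5080, 13040 and 18420 CPM in macrophages. No dendritic cell library came near the lowest macrophage library (log2 10.56 ± 0.403, adjusted p = 5.9e-10). Its partner arm miR-9-3p had 5 reads in all 10 dendritic cell libraries and 4579 reads in the macrophage libraries. miR-187-3p stood at 0, 0.4603 and 1.198 CPM in dendritic cells and 13.92, 101.1 and 187 CPM in macrophages (log2 7.67 ± 0.534), again with no overlap. miR-147-3p, whose hairpin lies at chr2:122640803-122640881 in an exon of AA467197, stood at 2.032, 3.825 and 282.6 CPM in dendritic cells and 433.2, 779.4 and 1898 CPM in macrophages (log2 6.91 ± 0.832). The high dendritic cell values were those of the 2 libraries with LPS. Its partner miR-147-5p was 6.61 ± 0.545 higher on the log2 scale.

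The 4 mature 5p members of the miR-181 family, which acts in blood cell development, were all higher in macrophages. miR-181d-5p stood at 8.147, 13.14 and 18.62 CPM in dendritic cells and 157.5, 571.9 and 1257 CPM in macrophages (log2 5.49 ± 0.303). miR-181c-5p stood at 25.87, 45.12 and 60.12 CPM against 138.9, 424.6 and 938.3 CPM (log2 3.55 ± 0.235), and miR-181a-5p at 14350, 21170 and 25590 CPM against 55550, 77700 and 94510 CPM. The libraries of all 3 are separated between the cell types, and so is miR-181b-5p (log2 2.44 ± 0.103). miR-181c and miR-181d lie within chr8:84178716-84178961 in an intron of Nanos3, and miR-181c-3p was also higher (log2 5.87 ± 0.632). The passenger arms of the miR-181a hairpins parted: miR-181a-1-3p was higher (1.31 ± 0.134) and miR-181a-2-3p lower (−1.68 ± 0.133), the latter without overlap. In the family as a whole 6 of 8 tested arms were higher (40.7% over all tested miRNAs), 1 lower (35.1% over all) and 1 not called. Their median log2 difference was 2.21, with arms of 1 hairpin counted separately.

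miR-155-5p is the miRNA deleted in the knockout, so only its 5 wild-type pairs measure a working gene. It stood at 129.3, 9590, 447.3, 341.3 and 431.1 CPM in wild-type dendritic cells (unstimulated, LPS, oxLDL, eLDL and LDL) and at 5349, 39830, 33150, 27240 and 26730 CPM in wild-type macrophages. Each macrophage library was above its partner, but the dendritic cell library with LPS was above the unstimulated macrophages. The log2 difference was 5.57 ± 0.794 over the wild-type pairs (adjusted p = 0.00092) and 4.87 ± 0.644 over all 10 pairs, a call that was lost when the pairing was dropped (3.54). In the knockout, dendritic cell libraries held 0.3115 to 0.7899 CPM and macrophage libraries 3.928 to 5.887 CPM. These traces were higher in macrophages too (3.04 ± 0.373), and their source was not tested.

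The remaining members of this group were miR-149-5p (log2 4.15 ± 0.248), miR-365-3p (3.88 ± 0.264), miR-184-3p (3.83 ± 0.265), miR-10b-5p (3.56 ± 0.283), miR-150-5p (3.37 ± 0.247), a miRNA of mature lymphocytes, and miR-183-5p (3.02 ± 0.215). In none of them did the libraries of the 2 cell types overlap. Of the 30 miRNAs with the largest differences in either direction, 29 had separated ranges, miR-155-5p being the exception. Again all but miR-155-5p, 29, stayed called in every alternative analysis. Both counts follow in part from the choice of these 30 by size and by the same direction in all 10 pairs. Over all tested miRNAs 118 of 376 (31.4%) had separated ranges, and 185 of the 285 calls held in every alternative. Among miRNAs below the level of 50 CPM, 3 were at 0 reads in all 10 dendritic cell libraries, and so were tested only because of their macrophage reads. Against a floor of 3 reads over those libraries together, miR-135a-1-3p was at least 389-fold higher in macrophages, miR-138-1-3p at least 271-fold and miR-187-5p at least 125-fold. This floor allows for counting error only. No tested miRNA was at 0 in all macrophage libraries.

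The largest differences towards dendritic cells came from 3 related clusters, each of which carries a miR-99 or miR-100 hairpin, a let-7 hairpin and a miR-125 hairpin. They are known from blood stem and progenitor cells, where miR-125 acts on cell survival. In the cluster on chromosome 16, within Mir99ahg, all 6 tested members were lower in macrophages (35.1% over all tested miRNAs), with a median log2 of −8.02. miR-99a-5p stood at 1292, 1797 and 2808 CPM in dendritic cells and 2.634, 6.009 and 8.907 CPM in macrophages (log2 −8.22 ± 0.221, adjusted p = 2e-11). miR-99a-3p had 10812 reads in the dendritic cell libraries and 19 reads in the macrophage libraries, 6 of which had none. miR-125b-5p, which comes from 2 hairpins, stood at 823.3, 1316 and 1519 CPM in dendritic cells and 2.952, 5.383 and 9.742 CPM in macrophages (log2 −7.76 ± 0.247), and miR-125b-2-3p was lower by a similar amount (−8.22 ± 0.441). In each case the groups were far apart. let-7c-5p, which has a second hairpin on chromosome 15, stood at 25890, 32150 and 47920 CPM in dendritic cells and 3782, 5132 and 6359 CPM in macrophages, a smaller distance but again with no overlap.

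The cluster of miR-99b, let-7e and miR-125a lies at chr17:17830188-17830879 within Spaca6. It was lower in macrophages in all 6 tested members (35.1% over all tested miRNAs), with a median log2 of −3.85. miR-99b-5p stood at 21000, 26460 and 40080 CPM in dendritic cells and 1378, 3123 and 8693 CPM in macrophages. let-7e-5p stood at 3927, 6940 and 9782 CPM in dendritic cells and 131.8, 389.6 and 1399 CPM in macrophages (log2 −4.34 ± 0.494). miR-125a-5p stood at 5703, 9676 and 12200 CPM against 166.3, 426.2 and 1363 CPM (−4.40 ± 0.447). The highest macrophage library of all 3 was the unstimulated wild-type one, which still lay below every dendritic cell library. The list for the third cluster, with miR-100, let-7a-2 and miR-125b-1, had all 3 tested members lower (35.1% over all), with a median log2 of −5.82. It counts miR-125b-5p again and leaves out let-7a-5p (−0.97 ± 0.115), which also has a hairpin elsewhere. miR-100-5p stood at 7.96, 19.29 and 49.21 CPM in dendritic cells and 0, 0.1881 and 1.308 CPM in macrophages.

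Beyond these clusters stood miR-221 and miR-222, a pair on chromosome X that represses the cell cycle inhibitor p27. They were lower in macrophages in all 4 tested arms (35.1% over all tested miRNAs), with a median log2 of −2.70. miR-222-3p stood at 10350, 39240 and 46800 CPM in dendritic cells and 2581, 4477 and 7038 CPM in macrophages. The 2 lowest dendritic cell libraries were those with LPS, at 14600 CPM in the wild type and 10350 CPM in the knockout, and both lay above every macrophage library. miR-511-5p, from the locus of the mannose receptor gene Mrc1, stood at 88.03, 112.0 and 165.7 CPM against 6.392, 13.03 and 25.59 CPM (log2 −3.10 ± 0.210), and miR-574-3p (−2.84 ± 0.260) and miR-574-5p (−2.65 ± 0.218) were lower without overlap.

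Of the 25 tested arms of inflammation-responsive miRNAs, 15 were higher in macrophages, 7 lower and 3 not called, with a median log2 difference of 2.17. Over all 376 tested miRNAs 40.7% were called higher and 35.1% lower, with a median of 0.0765, and the counts of the lists below are to be read against these shares. The lists were chosen with earlier results of these data known, and arms of 1 hairpin count separately, so the counts only describe their members. The higher arms of the inflammation list include both arms of miR-9, miR-147, miR-187, miR-146b, miR-155, miR-132 and miR-212, and miR-34a-5p. The miR-155 calls take in the 5 knockout pairs, and miR-155-3p had no read in 6 dendritic cell and 5 macrophage libraries. miR-132-3p stood at 38.16, 56.36 and 79.9 CPM in dendritic cells and 103.8, 259.9 and 355.2 CPM in macrophages, separated between the groups (log2 2.17 ± 0.174). The lower arms of this list were miR-146a-5p, both arms of miR-21a and the 4 arms of miR-221 and miR-222. In the list on alternative activation and the mannose receptor locus, 2 of 6 were higher (both arms of miR-378a, miR-378a-3p by 0.96 ± 0.177) and 4 lower, both arms of miR-511 and of miR-342, with a median of −0.62. The call of miR-342-3p (−0.40 ± 0.125) was lost in the wild-type pairs alone (−0.05).

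Families of broadly expressed miRNAs had smaller median shifts than the clusters with miR-99 or miR-100. Of 18 tested let-7 and miR-98 arms, 15 were lower, 2 higher and 1 not called (median log2 −0.87), where 35.1% of all tested miRNAs were lower and 40.7% higher. More than 4-fold lower were 5 of the 18 (8.24% over all tested miRNAs), among them let-7c-5p and let-7e-5p, already counted in those clusters. The most abundant of the 18 arms was let-7f-5p, at 63970, 80560 and 122900 CPM in dendritic cells and 45270, 61470 and 83250 CPM in macrophages. Its ranges overlap (−0.32 ± 0.0989), and its call was lost in the wild-type pairs alone. let-7a-5p differed by −0.97 ± 0.115 without overlap, while miR-98-5p was higher (0.54 ± 0.126), a call lost with upper-quartile scaling (0.21). In the clusters of miR-23, miR-27 and miR-24, 10 of 11 were lower and 1 higher (median −1.38). miR-27b-3p stood at 36680, 50050 and 61600 CPM against 9871, 11260 and 16040 CPM, with no overlap, and miR-24-3p was lower (log2 −0.95 ± 0.0573). miR-23a-3p was called higher at 0.25 ± 0.0687 but came out at −0.08 with upper-quartile scaling. The copy of this cluster on chromosome 13 (miR-23b, miR-27b, miR-24-1) was lower in all 6 arms, the copy on chromosome 8 in 5 of 6, with miR-24-3p counted in both because its reads cannot be placed in 1 copy.

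Of 11 miR-30 arms 7 were lower, 3 higher and 1 not called (median −0.67); miR-30d-5p was lower without overlap, and miR-30c-5p was higher (0.19 ± 0.0788) only outside upper-quartile scaling (−0.15). The cluster of miR-322, miR-503, miR-351, miR-542 and miR-450 had 7 of 9 lower and 2 not called (median −0.93), with miR-503-5p at −1.40 ± 0.104. In the miR-15 and miR-16 family 5 of 8 were lower, 1 higher and 2 not called (median −0.62). Its main member miR-16-5p stood at 10460, 12900 and 16170 CPM against 10330, 11780 and 13870 CPM, overlapping and not called (log2 −0.005 ± 0.0546, adjusted p = 0.95), and miR-15b-5p was called higher (0.23 ± 0.0717) but lay at −0.10 with upper-quartile scaling. The growth clusters of miR-17-92, miR-106a-363 and miR-106b-25 had 8 of 16 higher, 4 lower and 4 not called (median 0.22), near the 40.7% and 35.1% of all tested miRNAs. Within them the miR-17-92 cluster on chromosome 14 had 8 of 10 arms called higher and the miR-106b-25 cluster on chromosome 5 had 4 of 6 called lower. Of the higher arms, miR-92a-3p and miR-19b-3p also have a hairpin on chromosome X, and miR-17-5p and miR-20a-5p turned to −0.11 and −0.15 with upper-quartile scaling. Of the miR-29 family 4 of 7 were higher and 3 lower (median 0.46), the higher ones being both arms of miR-29a, miR-29b-1-5p and miR-29b-3p, which has 2 hairpins. The arms of miR-148a and miR-148b were higher in 4 of 4 cases (miR-148a-3p 0.66 ± 0.0776). Those of miR-152, whose 3p arm shares the seed of miR-148a-3p and miR-148b-3p, were lower in 2 of 2 (miR-152-3p −1.05 ± 0.0740).

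In the miR-183 cluster, which also holds miR-96 and miR-182, all 3 tested members were higher in macrophages (median 2.60), with miR-182-5p at 377.7, 576.1 and 738.1 CPM in dendritic cells and 1794, 3131 and 6215 CPM in macrophages, apart from each other. In the Hox clusters miR-10b-5p and miR-196b-5p (4.29 ± 0.769) were higher and both arms of miR-10a not called (median of 4 arms 1.77). From the imprinted Dlk1-Dio3 cluster, large in other tissues, 17 arms were detected and 1, miR-127-3p, was abundant enough to test (log2 1.89 ± 0.238). Of 12 arms listed by name with the Sfmbt2 cluster, 4 were higher (40.7% over all tested miRNAs), 1 lower (35.1% over all) and 7 not called (median 0.34). No member was called with more than 4-fold. The lower one, miR-466i-5p (−0.91 ± 0.282), has no hairpin in the cluster on chromosome 2. That cluster had 11 tested arms, with 4 higher, 0 lower and 7 not called.

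**Figure D3:**
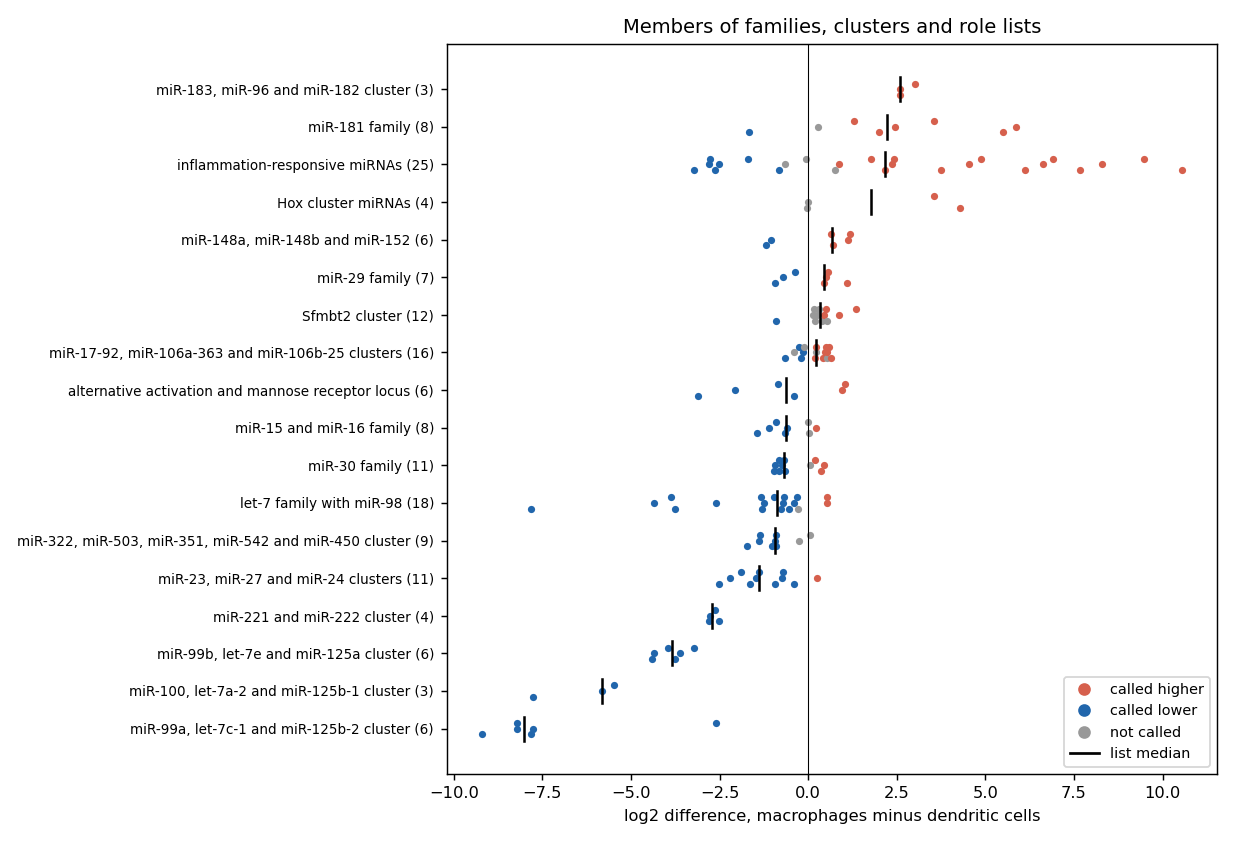
Log2 difference between macrophages and dendritic cells (horizontal axis) of the tested members of each family, cluster or role list with at least 3 of them (vertical axis, number tested in parentheses), coloured by the test, with the list median as a bar. The clusters with miR-99 or miR-100 lie farthest to the left, and the miR-183 cluster and the miR-181 family to the right. With upper-quartile scaling the median of all miRNAs lies lower, and miR-17-5p, miR-20a-5p, miR-23a-3p, miR-30c-5p and miR-15b-5p change sides.

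Tested hairpins that lay within 10 kb of each other on 1 strand formed 35 genomic clusters. Of these, 15 held only higher calls among their members, 14 only lower calls and 6 calls of both directions. Over all tested miRNAs 40.7% were called higher and 35.1% lower. Both arms of a hairpin were counted, and a miRNA with hairpins in several clusters was counted in each. Whether calls within a cluster share a direction more often than unlinked miRNAs was not tested. Seeds could be read for the 313 tested miRNAs with a RefSeq sequence, which leaves out miR-30d-5p and miR-30b-5p among others. Of 37 seeds shared by at least 2 of these, 14 had calls in both directions. Among these 14 the span from the lowest to the highest member was 7.78 log2 units for miR-146, 7.29 for miR-455-5p with miR-5129-3p and 4.89 for let-7 with miR-98. The seed ACCCGUA had all 3 tested members lower in macrophages, from miR-99b-5p at log2 −3.23 to miR-99a-5p at log2 −8.22.

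Markers of other cell types were read beside these results. miR-223 and miR-142a, general markers of myeloid and blood cells, summed to 17200 to 26400 CPM in dendritic cells and 21700 to 32500 CPM in macrophages, with 2 of 4 arms higher and 2 lower (median 0.04). Erythroid miRNAs had 0 of 3 higher, 2 lower and 1 not called, and summed to 1250 to 2010 CPM against 416 to 724 CPM, nearly all of it miR-486-5p, whereas miR-451a-5p, the defining one, reached at most 6.234 CPM in dendritic cells and 1.945 CPM in macrophages. The 1 tested lymphoid arm, miR-150-5p, was higher, and the list summed to 6.23 to 24.2 CPM against 63.9 to 168 CPM. Stromal miRNAs (1 of 3 higher, 1 lower, 1 not called) summed to 33.2 to 300 CPM against 30.5 to 530 CPM, with miR-10b-5p higher in macrophages (3.56 ± 0.283), miR-143-3p not called (0.37) and miR-199a-3p lower (−3.99 ± 0.405), the last at 19.65, 26.32 and 127.6 CPM in dendritic cells and 0.2123, 2.13 and 9.603 CPM in macrophages, without overlap. Epithelial miRNAs (2 of 6 higher, 4 lower) summed to 165 to 284 CPM against 192 to 275 CPM, and endothelial and megakaryocyte ones (0 of 2 called) to 4.3 to 18.4 CPM against 2.93 to 16.8 CPM. Liver and serum miRNAs were higher in 2 of 2 (207 to 289 CPM against 501 to 1040 CPM), the tested neural one, miR-128-3p, was lower (104 to 176 CPM against 55.4 to 98.0 CPM), and muscle miRNAs stayed at 0 to 1.35 CPM and 0 to 1.41 CPM. The part of other cells in the differences was not tested.

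Whether the cell type difference differs between the genotypes was tested as an interaction over the 5 wild-type and the 5 knockout pairs. The 5 pairs of a genotype differ in stimulus and may share a mouse or a culture. A difference of mouse, culture or strain therefore cannot be told apart from the loss of miR-155. The interaction test called 24 of 376 miRNAs (6.38%), 7 of them with a difference that was more positive in the knockout (1.86%) and 17 more negative (4.52%). At unadjusted p under 0.05 there were 70 (18.6%). The split depends on the scaling: total reads gave 9 and 13, and the upper quartile 16 and 7, as the median of all miRNAs moved from −0.0646 to 0.167 and 0.204. Leaving out 1 pair gave 9 to 26 calls, the fewest without the knockout oxLDL or the knockout LDL pair. With the wild-type LDL pair left out 12 were called, and with the knockout eLDL pair left out 11. In every alternative 6 were called: both arms of miR-10a and of miR-582, miR-210-3p and miR-34c-5p.

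miR-582-3p, from an intron of Pde4d at chr13:109324744-109324824, had the largest change among miRNAs above 50 CPM. It stood at 32.04, 10.68, 26.34, 28.02 and 28.84 CPM in wild-type dendritic cells (unstimulated, LPS, oxLDL, eLDL and LDL) and at 333.7, 431.1, 542.4, 436.2 and 424.6 CPM in wild-type macrophages. In the knockout it stood at 232.5, 61.79, 165.5, 188.9 and 155 CPM in dendritic cells and at 219.6, 198.4, 224.7, 213.4 and 197.9 CPM in macrophages. The cell types were separated in the wild type, while in the knockout the ranges overlapped, the unstimulated dendritic cell library lying above all 5 macrophage libraries. The cell type difference was thus 4.35 ± 0.234 in the wild-type pairs and 0.52 ± 0.205 in the knockout pairs, where it was not called (log2 change of the difference −3.90 ± 0.337, adjusted p = 4e-05).

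miR-210-3p, a hypoxia-induced miRNA, stood at 561.2, 1038, 426.4, 516.6 and 624.8 CPM in wild-type dendritic cells and 2513, 2988, 768, 962.7 and 887 CPM in wild-type macrophages. In the knockout it stood at 433.4, 1229, 477.9, 443.4 and 398.8 CPM in dendritic cells and 292.4, 191.1, 156.7, 164 and 147.8 CPM in macrophages. Macrophages were above their partner in all 5 wild-type pairs and below it in all 5 knockout pairs (−2.95 ± 0.447, adjusted p = 0.0031). miR-10a-5p behaved alike in direction: wild-type macrophages held 58720 to 82190 CPM against 38100 to 62930 CPM in dendritic cells, and knockout macrophages 23170 to 37510 CPM against 38320 to 50010 CPM (−1.39 ± 0.151, adjusted p = 0.00023). miR-34c-5p went the opposite way, with wild-type macrophages below dendritic cells and knockout macrophages above in 5 of 5 pairs each (2.16 ± 0.316).

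The other named interactions were less stable, with calls lost in 3 to 13 alternatives each. miR-99b-3p (−2.47 ± 0.649), miR-125a-5p (−2.01 ± 0.506) and miR-99b-5p (−1.66 ± 0.388), arms of the chromosome 17 cluster, were farther below dendritic cells in the knockout pairs. miR-146b-5p (−1.04 ± 0.224) was also among the 24, with 6745 to 10910 CPM in wild-type and 12150 to 20780 CPM in knockout dendritic cells, which do not overlap, while its macrophage level was 231700 to 266600 CPM and 248300 to 267500 CPM. On the positive side were miR-181c-3p (3.02 ± 0.712), miR-151-5p (0.98 ± 0.214), miR-30a-5p (0.67 ± 0.173), miR-744-5p (0.61 ± 0.162) and miR-298-5p (0.55 ± 0.133).

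**Figure D4:**
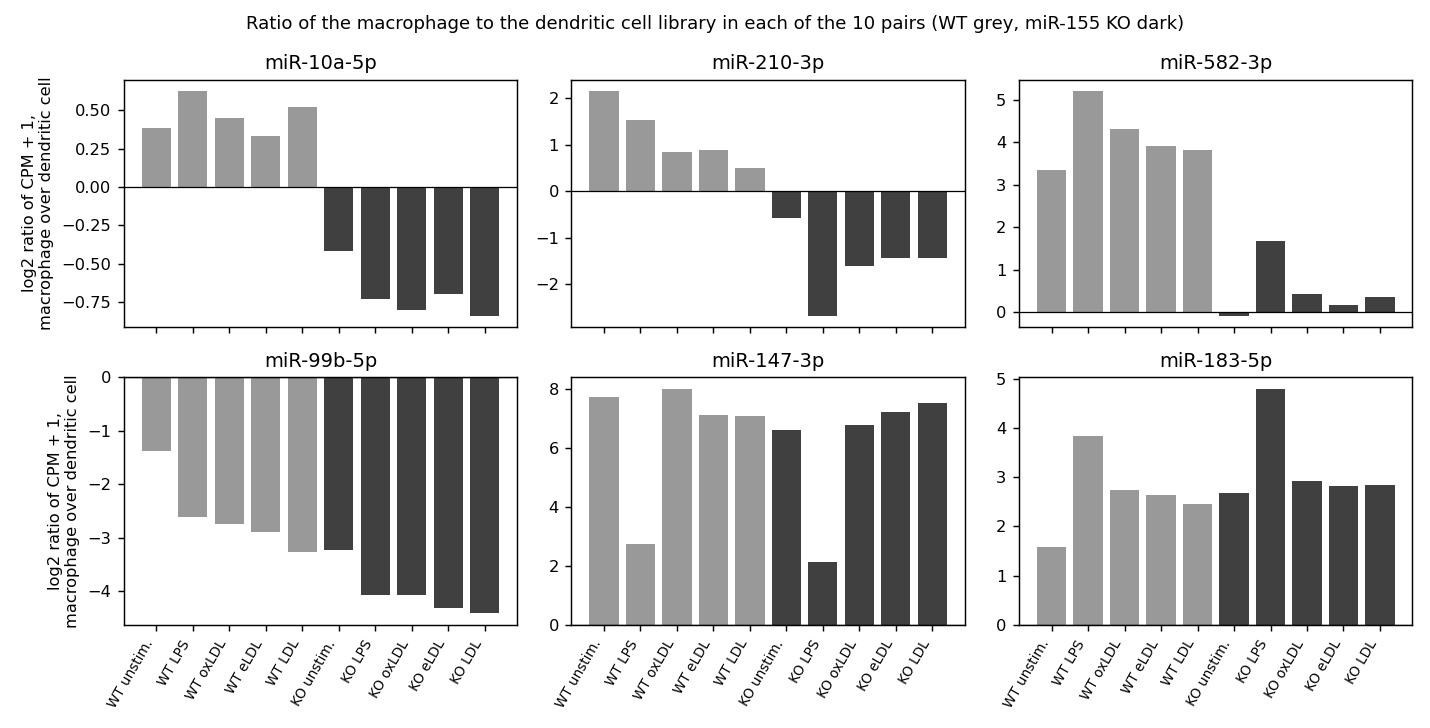
Log2 ratio of the macrophage to the dendritic cell library, on CPM + 1 (vertical axes, which differ between panels), in each of the 10 pairs (horizontal axis; wild type in grey, knockout in dark) for 6 miRNAs. miR-10a-5p and miR-210-3p are above 0 in the wild-type pairs and below 0 in the knockout pairs, miR-582-3p is higher in each wild-type pair than in any knockout pair, and miR-147-3p is lowest and miR-183-5p highest in the 2 LPS pairs.

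The dependence on LPS was tested over 2 LPS pairs against 2 unstimulated pairs, with macrophage dose and time unknown. It called 12 of 376 miRNAs (3.19%), 9 of them shifted towards macrophages under LPS (2.39%) and 3 towards dendritic cells (0.798%). At unadjusted p under 0.05 there were 59 (15.7%). Total-read scaling called 30 (28 and 2), with the median of all miRNAs at 0.504 in place of 0.108, RLE scaling 7 (4 and 3), and DESeq2 20 (13 and 7). Without the knockout LPS pair 2 calls were left, without the unstimulated wild-type pair 3 and without the wild-type LDL pair 7. Only both arms of miR-147 were called in every alternative. miR-147-3p stood at 2.32 CPM in unstimulated and 282.6 CPM in LPS-treated wild-type dendritic cells, and at 3.474 and 266.1 CPM in the knockout. In macrophages it stood at 708.8 and 1898 CPM in the wild type and 433.2 and 1158 CPM in the knockout. Macrophages stayed above dendritic cells under LPS, but the log2 ratio of the pairs fell from 7.74 to 2.74 in the wild type and from 6.60 to 2.12 in the knockout (−5.51 ± 0.551, adjusted p = 2e-04). miR-147-5p gave −3.78 ± 0.280.

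The gap widened under LPS for miR-183-5p (1.79 ± 0.310) and miR-182-5p (1.44 ± 0.30), from 1 cluster, calls that were lost without some pair. miR-183-5p stood at 347.7 and 207 CPM (unstimulated and LPS) in wild-type dendritic cells, 254 and 148.4 CPM in knockout dendritic cells, 1052 and 2963 CPM in wild-type macrophages and 1621 and 4125 CPM in knockout macrophages. The LPS libraries were the lowest of the dendritic cells and the highest of the macrophages. miR-1249-3p (2.15 ± 0.468), miR-149-5p (2.12 ± 0.376) and miR-361-5p (1.12 ± 0.247) changed in the same direction and miR-16-1-3p (−1.32 ± 0.265) in the other, and each lost its call without some pair. For the lipoproteins, 6 pairs against the 2 unstimulated ones, edgeR called 0 of 376 (0%) at an adjusted p under 0.05, with 35 (9.31%) at unadjusted p under 0.05 and 5 calls by DESeq2.

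The balance between the arms of a hairpin compares products of 1 precursor within a library. It was measured as log2((5p CPM + 1)/(3p CPM + 1)) in 82 hairpins and tested with limma over the 10 pairs. Each arm had to reach 5 CPM in at least 10 libraries, which can be met in 1 cell type alone. Where an arm is nearly absent from the other cell type, the balance there rests on the pseudocount. Of the 82 hairpins, 33 were called (40.2%), 15 with a higher 5p share in macrophages (18.3%) and 18 with a higher 3p share (22%). At unadjusted p under 0.05 there were 42 (51.2%). The largest shift, of miR-9 (4.68 ± 0.25), compares with dendritic cells in which the 3p arm is nearly absent, so its size depends on the pseudocount (3.01 to 6.27 over the alternatives). miR-146b moved towards its 5p arm by 1.23 ± 0.16: the 5p arm rose from a mean of 12320 to 253100 CPM and the 3p arm from 2.711 to 30.87 CPM. With so low a 3p arm its size depends on the pseudocount, and it ran from 0.847 to 2.21 over the alternatives. Towards 5p were also miR-671 (1.05 ± 0.20), miR-674 (1.03 ± 0.15), miR-21a (0.88 ± 0.22), miR-450b (0.82 ± 0.28, lost in 5 alternatives), miR-15b (0.79 ± 0.10) and miR-361 (0.76 ± 0.12). In miR-674 the balance moved in 10 of 10 pairs, with means of 38.92 and 166.4 CPM for the 5p and 3p arms in dendritic cells and 55.81 and 109.9 CPM in macrophages.

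Towards 3p, miR-181c shifted most (−1.92 ± 0.29), its 5p arm going from 45.34 to 549.7 CPM and its 3p arm from 2.744 to 150.1 CPM, with a range of −2.42 to −0.858 over the alternatives. miR-511 (−0.96 ± 0.11) and miR-338 (−1.06 ± 0.19) shifted in 10 of 10 pairs. miR-511-5p went from 118.5 to 13.51 CPM and miR-511-3p from 187.9 to 43.88 CPM, so that both arms were lower in macrophages and the 5p arm by more. miR-345 (−0.89 ± 0.27), miR-328 (−0.83 ± 0.19) and miR-877 (−0.79 ± 0.21, from −1.15 to −0.353 over the alternatives) moved likewise. The shift of miR-99a (−1.20 ± 0.18) turned to 0.22 with a pseudocount of 0.25 CPM, its 3p arm being at 0.2528 CPM in macrophages, and that of miR-125a (−0.71 ± 0.18) was not called there (−0.43).

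**Figure D5:**
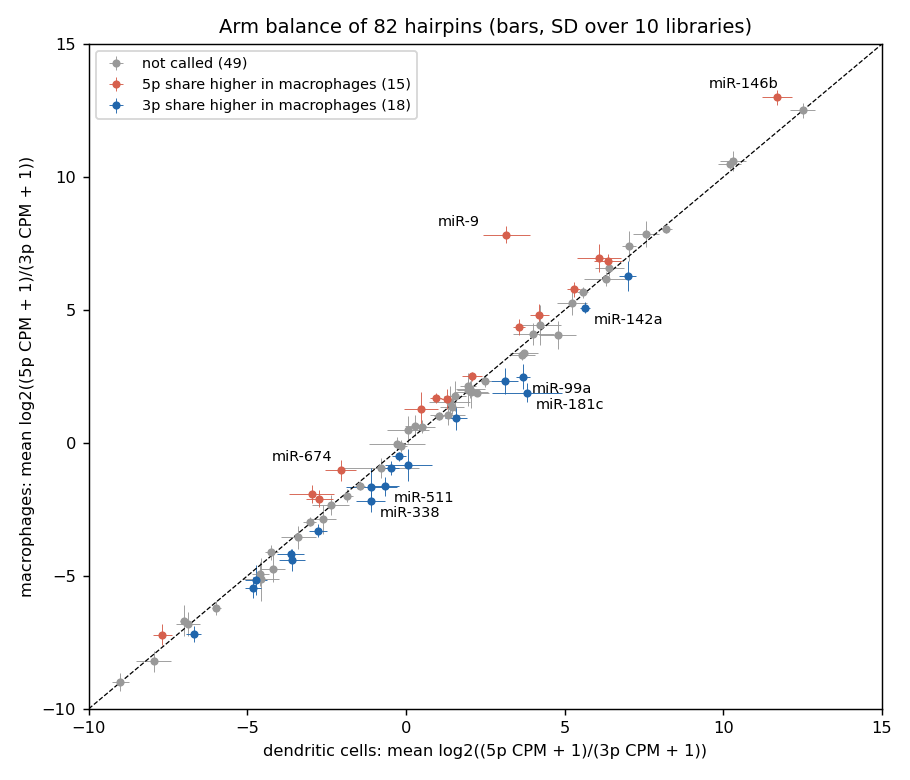
Mean log2((5p CPM + 1)/(3p CPM + 1)) of 82 hairpins in macrophages (vertical axis) against dendritic cells (horizontal axis), with bars of 1 SD over the 10 libraries, coloured by the test; the dashed line marks equal balance. Of the hairpins off the line, miR-9, whose 3p arm is nearly absent from dendritic cells, stands farthest above it and miR-181c farthest below.

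The 5′ end of a miRNA sets its seed. The share of reads that start up to 2 nt away from the most common start was compared in 139 arms with at least 200 reads in every library. The most common start was taken over the summed reads of all 20 libraries, so the cell type with more reads of an arm weighs more in it. Of the 139 arms, 60 were called by limma (43.2%), 51 with a higher off-start share in macrophages (36.7%) and 9 with a lower one (6.47%). At unadjusted p under 0.05 there were 68 (48.9%). For abundant arms the changes were small: miR-30d-5p went from 0.988% ± 0.077 (SD) in dendritic cells to 1.58% ± 0.09 in macrophages, miR-21a-5p from 1.53% ± 0.066 to 1.95% ± 0.15 and miR-146b-5p from 2.06% ± 0.09 to 2.48% ± 0.071. The predominance of small rises in 1 direction moves with the set of files, and sequencing and cell type cannot be told apart here. Larger shares moved in both directions. miR-222-5p reads that start off the common position made up 34.2 to 60.1% in dendritic cells and 42.8 to 73.7% in macrophages, higher in 10 of 10 pairs (log2 odds 1.04 ± 0.17, adjusted p = 0.00065). miR-29b-3p went the other way, from 23.9 to 35.5% to 11.5 to 26.8% (−1.06 ± 0.14, adjusted p = 9.7e-05), and miR-106b-3p from 25.9 to 30.2% to 17.1 to 25.8%, with no overlap (−0.51 ± 0.093). miR-140-3p went from 36.6 to 46.4% to 41.5 to 54.1% (0.48 ± 0.048).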

How the data were processed

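Each deposited file lists distinct small RNA sequences of 18 to 45 nt with the read counts the authors deposited. CASAVA 1.8.2 was used at a step not specified, per the submitters' processing notes, and adapter trimming is not described there. Libraries were made from total RNA (Trizol, TruSeq) per the labels' protocols.

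Tags between 18 and 26 nt long had to match exactly 1 or more of 1174 GENCODE M21 hairpins (GRCm38). RNAfold's terminal loop set the arm, and starts had to lie within 2 nt of the commonest one. Arms with the same mature sequence were merged, and reads of shared tags (0.0867 to 0.241% of miRNA reads) were divided equally and rounded. Of 1226 detected miRNAs, those reaching 5 CPM in 2 or more libraries (376) were tested, and RefSeq sequences matched 313 of them. Log2 differences are on TMM-scaled counts. edgeR 4.0.16 (R 4.3.3; robust quasi-likelihood F test) was fitted with cell type and a block for each of the 10 conditions (9 residual degrees of freedom), with interactions for genotype (8) and stimulus (7). Standard errors are the log2 change over the square root of F. limma 3.58.1 tested arm balance and 5′ ends. DESeq2 1.42.0 was an alternative. The scripts were tested on simulated data.

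Named miRNAs are the 15 largest called differences each way with a mean of at least 50 CPM and the same direction in all 10 pairs, the 10 most abundant per cell type, examples from 28 lists, up to 6 called interactions each way above 50 CPM, and up to 8 called arm or 5′ end shifts each way. Of the 5′ end shifts only some are described. Named beyond the rule, after their values were seen, are miR-34c-5p, miR-140-3p, miR-455-5p with miR-5129-3p, the 3 miRNAs at 0 in dendritic cells and miR-146b-5p by genotype, and some list examples (such as miR-132-3p) are not the most abundant of their list. The members and lists were chosen with earlier results of these data known.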

Additional observations from a re-analysis of the deposited data

Results flagged for a closer look

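In 2 of the 30 miRNAs with the largest differences, 1 of the 10 pairs lay apart from the rest of the log2 ratios, where chance sets apart about 1 in 20. These were miR-181c-5p in the unstimulated wild-type pair, at 1.22 with the other pairs from 3.07 to 4.58, and miR-99a-3p in the knockout LPS pair, at −5.59 with the other pairs from −7.6 to −6.59.

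The cell type difference itself differed with genotype, by the interaction test in edgeR, for miR-582-3p (−3.903), miR-210-3p (−2.954), miR-99b-3p (−2.474), miR-125a-5p (−2.009), miR-99b-5p (−1.659) and miR-10a-5p (−1.39), all more negative in the knockout, and for miR-181c-3p (3.015), miR-151-5p (0.9818), miR-30a-5p (0.6676), miR-744-5p (0.6109) and miR-298-5p (0.5501), all more positive. It differed under LPS for miR-183-5p (1.786), miR-149-5p (2.124), miR-361-5p (1.119), miR-1249-3p (2.148) and miR-182-5p (1.438), where macrophages gained on dendritic cells, and for miR-147-3p (−5.513), miR-147-5p (−3.784) and miR-16-1-3p (−1.317), where they lost ground.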

How the results depend on the processing

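Of the 285 miRNAs called between the cell types, 185 were called in every alternative, 100 were lost in at least 1 and 7 reversed in at least 1. The number of calls ran from 226 to 319, and with a filter of 50 CPM in 10 libraries it was 132, of the 162 then tested. Leaving out 1 pair gave 269 to 278. With upper-quartile scaling miR-17-5p (−0.11), miR-20a-5p (−0.152), miR-23a-3p (−0.084), miR-30c-5p (−0.145) and miR-15b-5p (−0.101) turned negative without a call, and miR-30e-5p (−0.291) and miR-15a-5p (−0.319), uncalled otherwise, were called lower. In the wild-type pairs alone miR-10a-5p (0.639), miR-10a-3p (0.816) and miR-210-3p (1.35) were called higher. The calls by genotype were 24, 6 of them in every alternative: 39 with no filter (18 positive, 21 negative), 41 with DESeq2, 9 to 26 without 1 pair, and splits of 14 and 7 at 50 CPM and 11 and 17 with the first 19 bases. For lipoproteins the count was 1 with RLE, 19 with no filter, 3 at 50 CPM, 5 with DESeq2 and 0 to 3 without 1 pair. For LPS the 12 calls became 30 with total reads, 7 with RLE, 29 with no filter (12 and 17), 7 at 50 CPM (3 and 4), 20 with DESeq2 and 2 to 13 without 1 pair. A fit of genotype and stimulus within cell type, added after seeing the data, gave 49 (29 and 20). Arm balance kept 31 to 35 calls and 5′ ends 56 to 63 without 1 pair, and 25 of 33 and 55 of 60 were called in every alternative. The causes were not tested, apart from filters that change how many miRNAs are tested. No paired analysis by replicate number was possible because the labels carry no replicate numbers. Depth limits single libraries to about 0.255 to 0.592 CPM.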
